A study of Homo sapiens with 4 samples.

Results

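The 37 integrin and laminin genes described here were taken by symbol from the 35979 gene symbols measured in the human small cell lung cancer line NCI-H1048. They comprise 18 integrin α chains (ITGA), 8 integrin β chains (ITGB) and 11 laminin chains (LAMA, LAMB and LAMC). The study sequenced poly(A) RNA after guide RNAs (gRNAs) directed at COLCA2 or at POU2F3, and after a gRNA without a target. POU2F3 is the transcription factor that defines the tuft cell-like form of this cancer, and COLCA2 is named in the study's title as a transcriptional co-activator. The COLCA2 group, given the genotype COLCA2 knockout in the labels, held 2 libraries made with different guides, and the POU2F3 group, given as POU2F3 knockout, held 1 library. All comparisons share the 1 library with the non-targeting gRNA, given as WT and called the control below. The labels do not say whether the edited cells were pools or clones, how the nuclease was supplied, how long after the guides the RNA was taken, or whether the libraries came from separate cultures, so the spread between the COLCA2 guides may be partly technical.

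Reads assigned to genes ranged from 21587741 to 29632382 per library. The POU2F3 transcript stood at 14602 normalized counts in the control, 1449 with POU2F3 gRNA and 3677 and 2351 with the COLCA2 guides. COLCA2 transcript stood at 5585, 1393, 3119 and 3541 in the same order, so with its own guides it was less than 2-fold lower; a transcript level does not show whether a guide cut its gene. All 9 measurable genes of a 12-gene tuft list, which includes POU2F3 itself, were at least 2-fold lower with POU2F3 gRNA (3.05% of all genes were) and 8 of them with both COLCA2 guides (2.02%). The summed level of the list was 53369 in the control and 10457 to 16284 in the others. The neuroendocrine list summed to 4465 in the control, mostly through NCAM1, and to 1969 to 2877 in the others.

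Laminins are cross-shaped proteins of basement membranes, each built from an α, a β and a γ chain. Integrins are cell surface receptors made of an α and a β chain, and the pairing decides which matrix protein is bound and which proteins are recruited inside the cell. In epithelia LAMA3 and LAMB3 give chains of the laminin that anchors basal cells, and the integrin of ITGA6 and ITGB4 binds it in hemidesmosomes, while ITGA3 with ITGB1 binds it at other adhesion sites. ITGAV pairs with several β chains in receptors for fibronectin, vitronectin and latent TGF-β, of which the pair with ITGB6 is found mainly in epithelial cells.

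LAMB3 and ITGB6 showed the largest differences of a laminin and an integrin chain past the expression minimum, so the DNA upstream of their RefSeq start sites is shown (GRCh38.p14, 5′ to 3′ on the strand of the gene). Of the 37 genes, 26 had an entry in the RefSeq promoter table, with 33 windows of 250 bases before a start; ITGA3 and ITGB4 were among the 11 without one. Only the stretch outside annotated exons is printed, and capitals mark a match to the AP-1 motif TGANTCA, the TEAD motif GGAATG or the POU octamer ATGCAAAT on either strand. LAMB3 has 3 start sites in the table. The stretch before the innermost lies at chr1:209651395-209651624 and the one before the outermost at chr1:209652467-209652675, which also covers the shorter stretch before the other start. The ITGB6 stretch lies at chr2:160200314-160200522. All are on the minus strand.
LAMB3 innermost start: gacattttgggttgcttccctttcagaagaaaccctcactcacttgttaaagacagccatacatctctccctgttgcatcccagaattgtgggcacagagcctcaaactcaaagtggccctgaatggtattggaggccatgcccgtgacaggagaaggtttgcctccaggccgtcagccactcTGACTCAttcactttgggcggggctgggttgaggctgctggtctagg
LAMB3 outermost start: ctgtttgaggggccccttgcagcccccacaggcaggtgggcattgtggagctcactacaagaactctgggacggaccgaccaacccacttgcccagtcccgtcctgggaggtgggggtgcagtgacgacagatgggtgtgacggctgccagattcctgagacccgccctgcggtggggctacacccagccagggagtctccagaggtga
ITGB6: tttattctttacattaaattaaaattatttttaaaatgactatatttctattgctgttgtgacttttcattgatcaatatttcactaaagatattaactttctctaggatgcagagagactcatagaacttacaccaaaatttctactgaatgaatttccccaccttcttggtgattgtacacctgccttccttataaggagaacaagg
The innermost LAMB3 stretch held 1 AP-1 match, 67 bases before the start, and the other stretches held no match to these motifs. AP-1 matches occurred in 2 of the 33 windows (6.06%), those of LAMB3 and LAMA3, against 6.57% of the 35116 windows in the table. TEAD matches occurred in 4 windows (12.1%, against 11.9%), and octamer matches in none (against 1.63%). The E-box CANNTG, which is not marked in the sequences, occurred in 18 windows (54.5%, against 61.8%). The AP-1, TEAD and E-box shares among these genes were thus close to those of all windows, and a match to letters does not show that a factor binds.

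In the levels across the 4 libraries, several chains stood well above the control after both kinds of guide. In bulk RNA such as this, more cells that express a gene and more RNA per cell cannot be told apart. Of the 37 genes, 32 had a mean normalized count of at least 20 over the libraries (all 11 laminin chains and 21 integrin chains), and these are compared below as log2 ratios of the normalized count plus 1. Since 2 of the 3 groups hold 1 library, a gene was counted when it was at least 2-fold apart, without a test, and for COLCA2 with both guides. With POU2F3 gRNA, 6 of the 32 were higher (LAMB3, ITGB6, ITGA3, ITGAV, ITGB3 and LAMB1), which is 18.8%, against 6.73% of the 14940 genes past the minimum. None was lower, against 3.05% of all genes. With both COLCA2 guides, 5 were higher (LAMB3, ITGB6, ITGA3, ITGAV and ITGB4), which is 15.6%, against 5.79%, and none was lower, against 2.02%. With COLCA2 gRNA 2 alone 8 were higher, and with gRNA 1 alone 5. The share of all genes with a single guide was not computed, so these counts are not read as a result about the genes.

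**Figure D1:**
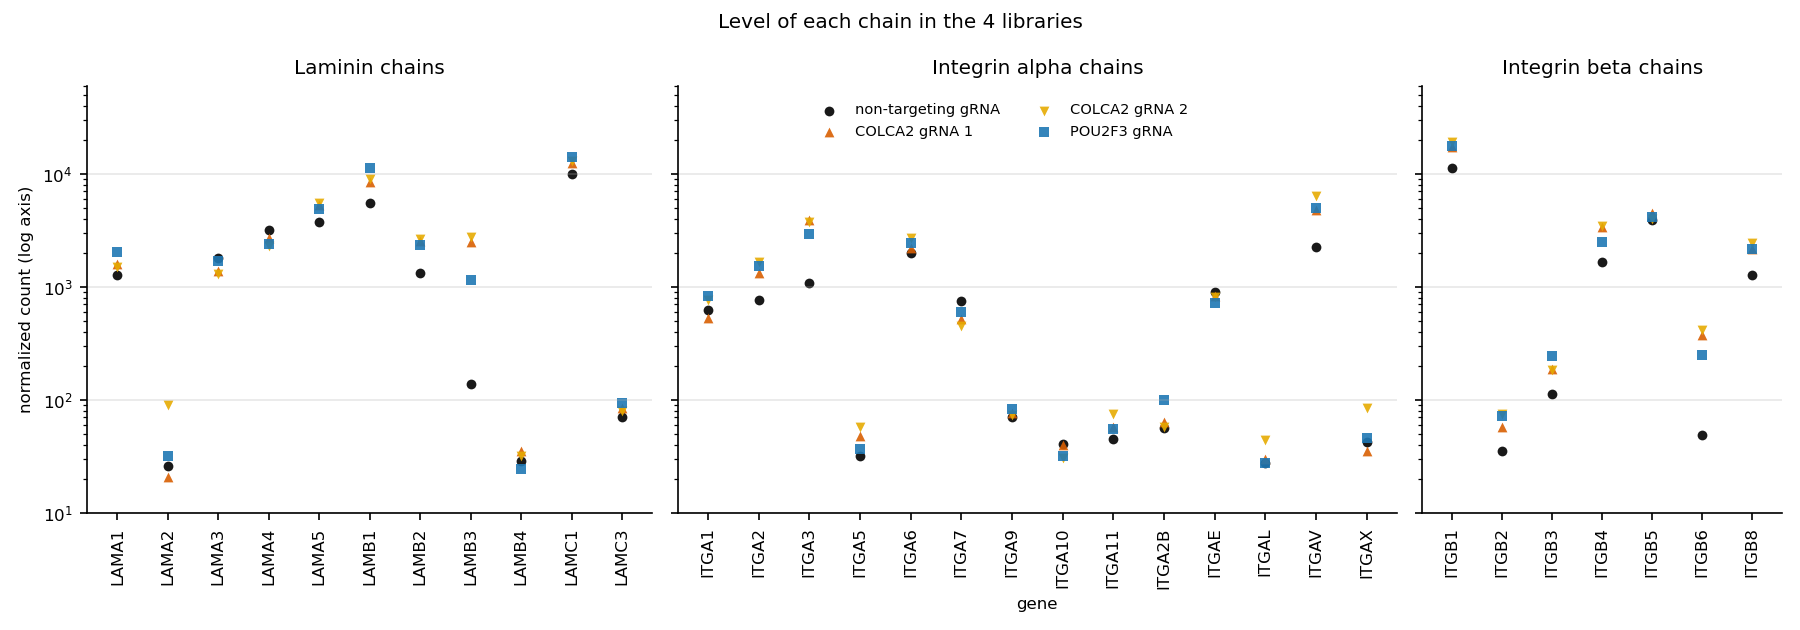
Normalized count (log axis) of the 32 genes past the expression minimum, with 1 point per library and no error bars. LAMB3 and ITGB6 each have their lowest point in the control, and LAMC1, LAMB1 and ITGB1 are among the most abundant chains in every library.

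The median log2 ratio over the 32 genes was 0.41 with POU2F3 gRNA, and 0.31 and 0.67 with the COLCA2 guides, against -0.0037 and -0.0086 over all genes for POU2F3 gRNA and the mean of the guides. Ratios above 0 were seen for 26 of the 32 genes with POU2F3 gRNA (81.25%, against 49.6% of all genes) and for 24 and 27 with the COLCA2 guides (75% and 84.4%, against 49.3% and 49.8%). These comparisons share their control, so a low or high value there enters each of them.

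Read counts recovered from the normalized values were also tested with edgeR's quasi-likelihood test and Benjamini-Hochberg adjustment over all genes, in which the spread comes from the COLCA2 pair alone. At an adjusted p under 0.05, 14 of the 32 were higher with POU2F3 gRNA, against 8.45% of all genes, and 12 with COLCA2 gRNA, against 11.4%. With COLCA2 gRNA, LAMA3 and ITGA7 were lower, against 7.51% of all genes. None was lower with POU2F3 gRNA by this test, against 3.98%, and 2 (LAMA4 and ITGAE) were lower there at an unadjusted p under 0.05, against 11% of all genes. With COLCA2 gRNA 3 (ITGA7, LAMA3 and LAMA4) were lower at that threshold, against 14.8%. The higher calls with COLCA2 gRNA were ITGA2, ITGA3, ITGAV, ITGB1, ITGB4, ITGB6, ITGB8, LAMA5, LAMB1, LAMB2, LAMB3 and LAMC1. Those with POU2F3 gRNA were ITGA2, ITGA3, ITGAV, ITGB1, ITGB3, ITGB4, ITGB6, ITGB8, LAMA1, LAMA5, LAMB1, LAMB2, LAMB3 and LAMC1.

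**Figure D2:**
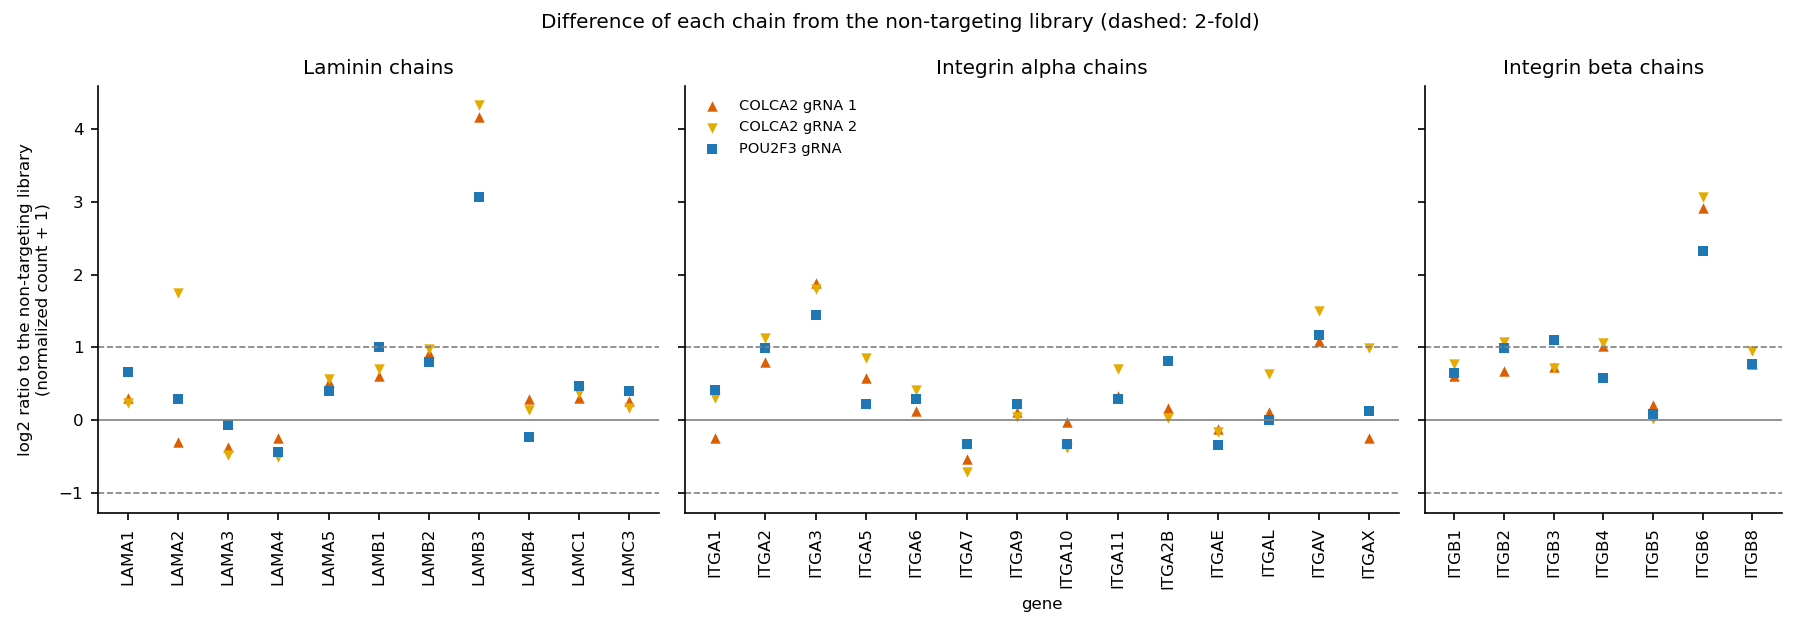
Log2 ratio of each chain to the non-targeting library, with 1 point per library, a solid line at no difference and dashed lines at 2-fold. LAMB3 and ITGB6 are the highest chains in each library, and no chain lies below the lower dashed line.

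Among the laminin β chains, LAMB3 (ENSG00000196878, chromosome 1, 209614870 to 209652466 in GRCh38, minus strand) showed the largest difference of the 32 genes in every library. It had 137 normalized counts in the control, 2474 and 2753 with the COLCA2 guides and 1151 with POU2F3 gRNA. The COLCA2 libraries were highest, and the control lay far below the other 3. The fold was 18.1 (95% exact counting interval 15.3 to 21.6) and 20.2 (17.0 to 24.0) with the COLCA2 guides, a log2 ratio of 4.25 ± 0.11 (SD, n = 2 guides), and 8.43 (7.09 to 10.1) with POU2F3 gRNA. edgeR's quasi-likelihood test with Benjamini-Hochberg adjustment gave an adjusted p of 2.88e-05 for COLCA2 and 0.000107 for POU2F3. Ranked among all genes, LAMB3 had the 138th largest ratio with POU2F3 gRNA and the 69th largest by the smaller of the ratios with the COLCA2 guides.

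LAMB1, the most abundant laminin β chain per length, had normalized counts of 5547 (control), 8480 and 9051 (COLCA2) and 11178 (POU2F3). Here the POU2F3 library was highest, at a log2 ratio of 1.01, just past 2-fold, against 0.66 ± 0.067 (SD, n = 2 guides) with COLCA2, and it lay under 2-fold when libraries were scaled to equal totals. LAMB2, the β chain of muscle and kidney basement membranes, stood at 1337, 2534, 2646 and 2322 in the same order. Its log2 ratios of 0.92 and 0.98 (COLCA2) and 0.80 (POU2F3) were just under 2-fold. LAMB4 was low, at 28.6, 35.2, 31.8 and 24.3, with log2 ratios of 0.29, 0.14 and -0.23. On the opposite strand LAMB1 overlaps DLD, an enzyme gene with normalized counts of 1586, 1454, 2018 and 1859, and use of the strand in counting is not stated. The same limit holds for LAMA5 with ADRM1 (3966, 4306, 4067 and 3447), ITGA7 with BLOC1S1 (1478, 1362, 1338 and 1224) and ITGAE with HASPIN (444, 398, 330.5 and 302), each on the opposite strand.

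Of the γ chains, LAMC1, which is part of most laminins, was abundant, at 10066 (control), 12451 and 13085 (COLCA2) and 13997 (POU2F3), with log2 ratios of 0.31, 0.38 and 0.48. LAMC3 lay between 70.7 and 94.0 in the 4 libraries and its differences stayed well under 2-fold.

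LAMA3 (ENSG00000053747, chromosome 18, 23689443 to 23956222, plus strand), the α chain that joins LAMB3, was not higher in any library. It had 1784 normalized counts in the control, 1382 and 1287 with the COLCA2 guides and 1706 with POU2F3 gRNA. With COLCA2 it was lower by a log2 ratio of -0.42 ± 0.073 (SD, n = 2 guides), at an adjusted p of 0.0357 in edgeR's quasi-likelihood test with Benjamini-Hochberg adjustment. With POU2F3 gRNA the fold was 0.956 (0.897 to 1.02), an interval that includes no difference. LAMA4 was also lower in all 3 libraries, at 3214, 2710, 2277 and 2369, and LAMA5, the broadly expressed epithelial α chain, was higher, at 3711, 5341, 5502 and 4899. LAMA1 had 1282, 1584, 1511 and 2041, with the POU2F3 library highest. LAMA2, the muscle α chain, stood apart with COLCA2 gRNA 2 alone, at 89.4 against 20.7 with gRNA 1, 25.8 in the control and 31.9 with POU2F3 gRNA.

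Of the integrin chains that bind laminin, ITGA3 (ENSG00000005884, chromosome 17, 50055968 to 50090481, plus strand) differed most. It had 1070.5 normalized counts in the control, 3941 and 3736 with the COLCA2 guides and 2931 with POU2F3 gRNA, which puts all 3 libraries above the control. The log2 ratio was 1.84 ± 0.054 (SD, n = 2 guides) with COLCA2 and 1.45 with POU2F3 gRNA, with adjusted p-values of 9.03e-05 and 0.00042 in edgeR's quasi-likelihood test with Benjamini-Hochberg adjustment. ITGB4 (chromosome 17, 75721328 to 75757818), the hemidesmosome β chain, had 1650, 3355, 3434 and 2475. It passed 2-fold narrowly with the COLCA2 guides, at log2 ratios of 1.02 and 1.06, and not with POU2F3 gRNA, at 0.58. Its partner ITGA6 differed less, with 2009, 2189, 2688 and 2466. ITGA7, the laminin receptor chain of muscle, was lower, with 742, 515, 452 and 592, and with COLCA2 its adjusted p was 0.028 by the same edgeR quasi-likelihood test.

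Among the ITGAV receptors, ITGB6 (ENSG00000115221, chromosome 2, 160099666 to 160200313, minus strand) showed the largest difference of an integrin chain. It had 48.7 normalized counts in the control, 374 and 414 with the COLCA2 guides and 248 with POU2F3 gRNA. The COLCA2 libraries were highest, and all 3 stood above the control. These are folds of 7.68 (5.72 to 10.5), 8.50 (6.32 to 11.6) and 5.10 (3.78 to 7.01), with adjusted p-values of 0.000334 for COLCA2 and 0.00171 for POU2F3 in edgeR's quasi-likelihood test with Benjamini-Hochberg adjustment. ITGAV itself (chromosome 2, 186590065 to 186680901) had 2237, 4750, 6326 and 5023. Its folds were 2.12, 2.83 and 2.25, and the guides differed more from each other here than for ITGA3, with a log2 ratio of 1.29 ± 0.29 (SD, n = 2 guides).

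The other partners of ITGAV were less far from the control. ITGB3, the β chain of the vitronectin receptor, had 112, 187, 185 and 242, with a log2 ratio of 1.11 for POU2F3 gRNA, past 2-fold, and 0.73 and 0.72 for the COLCA2 guides, under it. ITGB5 had 3881, 4482, 3946 and 4121, and no library was far from another. ITGB8, which binds latent TGF-β, had 1263, 2167, 2456 and 2155, at log2 ratios of 0.78, 0.96 and 0.77. ITGB1, the shared β chain, was the most abundant per length of all 32 genes, with 11275, 17151, 19192 and 17617 normalized counts and log2 ratios of 0.61, 0.77 and 0.64. Of the fibronectin-binding and related α chains, ITGA5 was low, at 31.5 to 57.6, ITGA9 lay between 70.7 and 83.1, and ITGA2B stood at 56.3, 63.2 and 57.6 with the POU2F3 library at 99.9.

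Among the collagen receptors ITGA2 differed most, with 760 in the control, 1327 and 1663 with the COLCA2 guides and 1514 with POU2F3 gRNA. It passed 2-fold with COLCA2 gRNA 2 (log2 ratio 1.13), missed it with gRNA 1 (0.80) and lay at the threshold with POU2F3 gRNA (0.99, past it with TMM factors), at adjusted p-values of 0.00687 and 0.0119 for COLCA2 and POU2F3 in edgeR's quasi-likelihood test with Benjamini-Hochberg adjustment. ITGA1 had 622, 526, 770 and 832, so the COLCA2 guides lay on either side of the control. ITGA10 and ITGA11 were low throughout, at 30.6 to 40.1 and 44.9 to 74.1. ITGA1 holds PELO within its limits on the same strand, with normalized counts of 748 to 922, and how reads were shared between them was not tested.

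The leukocyte chains were low apart from ITGAE, whose levels of 904, 837, 807 and 713 were lower in all 3 libraries by less than 2-fold. ITGB2 had 35.3, 57.0, 75.3 and 71.3, and ITGAL and ITGAX had at most 84.7 in any library. ITGAX was more than 2-fold higher with COLCA2 gRNA 2 (84.7) than with gRNA 1 (35.2). The 5 genes under the minimum were ITGA4, ITGA8, ITGAD, ITGAM and ITGB7. ITGAM had 0 reads in the control and 32, 12 and 16 reads with the COLCA2 guides and POU2F3 gRNA, which against a floor of 3 reads is at least 11.6-, 4.93- and 4.69-fold higher. The exact counting intervals of these ratios, which allow for the reads on both sides, begin lower, at 8.89, 3.42 and 3.39. ITGB7 had 6, 38, 11 and 11 reads. On the opposite strand ITGB7 overlaps ZNF740, with normalized counts of 1176, 1141, 1198 and 1274, and use of the strand in counting is not stated. ITGA8 had 6 to 22 reads and ITGAD 3 to 9 reads, and ITGA4 had 1 read in 1 library.

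Direct comparison of the POU2F3 library with each COLCA2 guide found LAMB3 alone at least 2-fold lower, 1 of 32 genes (3.12%, against 0.924% of all genes), and no gene at least 2-fold higher (against 0.442%). LAMB3 was 2.15- and 2.39-fold lower with POU2F3 gRNA than with guides 1 and 2. By edgeR's quasi-likelihood test with Benjamini-Hochberg adjustment the log2 difference was -1.17 at an adjusted p of 0.0205, where 0.234% of all genes were called lower and 0.107% higher. The test called no other of the 32 lower and none higher, while at an unadjusted p under 0.05 ITGA3, ITGB4, ITGB6 and LAMB3 were lower, against 6.75% of all genes, and LAMA1, LAMA3 and LAMB1 higher, against 6.89%. The COLCA2 guides were at least 2-fold apart for LAMA2 and ITGAX, 2 of 32 genes (6.25%, against 2.22% of all genes).

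**Figure D3:**
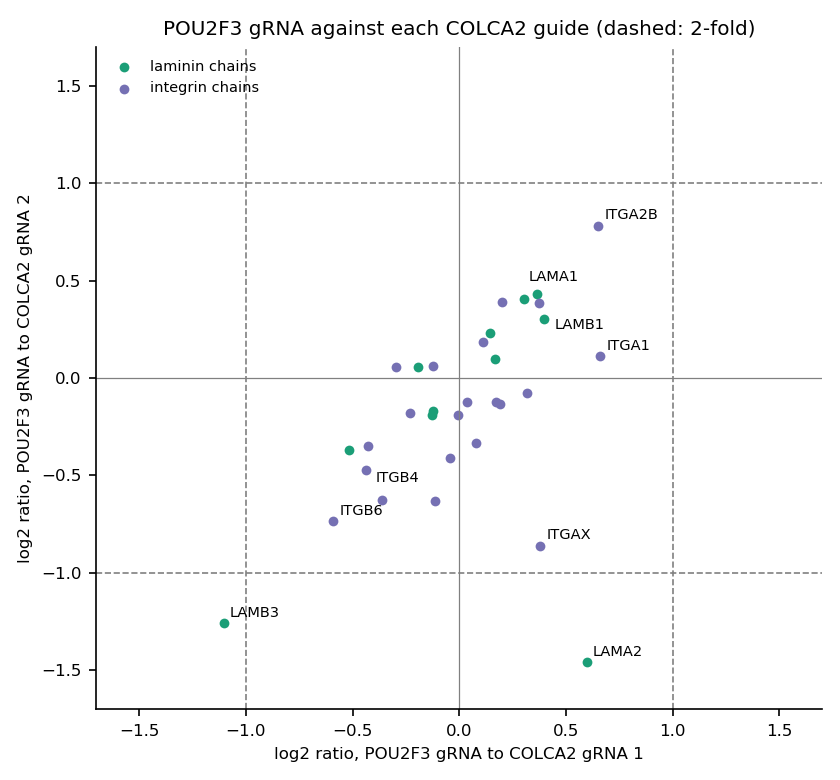
Log2 ratio of the POU2F3 library to COLCA2 gRNA 1 (x axis) and to COLCA2 gRNA 2 (y axis), 1 point per gene, with dashed lines at 2-fold. LAMB3 is the only point past 2-fold lower on both axes, and LAMA2 and ITGAX lie far from the diagonal because the COLCA2 guides differ for them.

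Levels divided by the length of the longest coding transcript in GENCODE release 29 allow chains to be compared within a complex, and here they are sums of normalized counts per kb. For the laminin β chains LAMB3 took 2.57% of the summed level in the control, 23.0% and 23.9% with the COLCA2 guides and 10.2% with POU2F3 gRNA. LAMB1 took 77.9%, 58.9%, 58.5% and 74.0% in the same order, and the whole β pool was 1234, 2498, 2681 and 2619 per kb. The α pool stayed between 1116 and 1177 per kb, while within it LAMA4 took 43.9% in the control and 31.0% to 35.2% in the others, and LAMA5 took 29.04% and 36.8% to 43.2%. LAMA3 held 15.0%, 11.01%, 10.8% and 13.7%. All chains summed here and below also have shorter coding transcripts, such as 462 of 10661 bp for LAMA3 and 351 of 4888 bp for ITGA3. Each level per kb, and each share, therefore depends on the transcripts expressed, which was not tested.

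Among the laminin-binding α chains ITGA3 took 28.9% of the summed level in the control and 61.0%, 56.5% and 50.7% with COLCA2 gRNA 1, gRNA 2 and POU2F3 gRNA. ITGA6 took 47.3%, 29.5%, 35.4% and 37.1%, and ITGA7, also in this sum, took 23.8%, 9.47%, 8.10% and 12.1%. The summed level was 757, 1321, 1353 and 1182 per kb. By the longest transcripts, ITGA3 was thus the largest share in the 3 libraries with a targeting guide and ITGA6 in the control. Among ITGB3, ITGB5, ITGB6 and ITGB8, which pair with ITGAV, ITGB5 took 82.9% in the control and 73.2%, 68.5% and 72.4% in the others. ITGB6 took 0.973% in the control and 5.72%, 6.72% and 4.08% in the others. The shared β chain ITGB1 was left out of this sum. In the control ITGB1 had 2980 per kb, against 1070 for the sum, so each share would be lower with it included. Shares are of RNA, and do not show which chains were joined in protein.

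**Figure D4:**
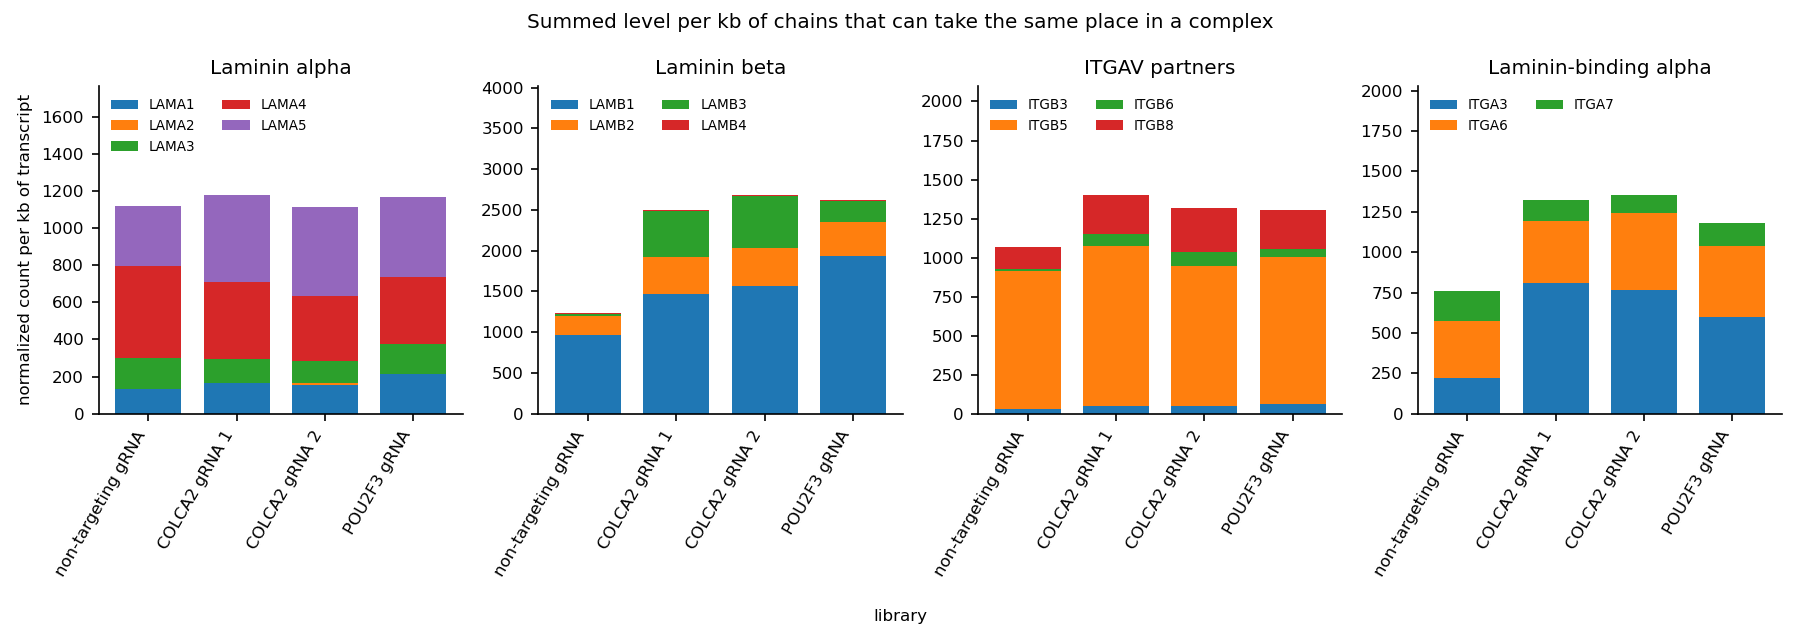
Summed normalized count per kb of transcript for 4 groups of chains that can take the same place in a complex, with 1 bar per library, colours for the chains and axes from 0. The laminin α bars are of similar height while the β bars stand at 1234 in the control and 2498 to 2681 in the others, and LAMB3 forms a visible part of the COLCA2 bars.

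Lists of other genes of matrix adhesion were counted in the same way, and the lists and their members were chosen knowing earlier results of these data. Of 28 measurable genes of the adhesion complex, 10 were at least 2-fold higher with POU2F3 gRNA and 11 with both COLCA2 guides, and none was lower, beside 6.73% and 5.79% of all genes higher. The median log2 ratios were 0.68 and 0.74. TNS1, which links integrins to actin, had the largest ratio of the list with POU2F3 gRNA but few reads, at 3.82, 78.8, 19.99 and 84.8 normalized counts. TNS3, a related protein, had 1303, 5964, 6349 and 6441, and NEDD9, a scaffold protein of adhesion sites, had 453, 2272, 2499 and 2203. TNS4, counted with the COLCA2 guides only, had 13.4, 63.2, 63.5 and 22.7 in the same order. TNS1 and TNS4 were below 20 in the control and passed the minimum through their levels with targeting guides. Such a minimum can favour genes that are then counted as higher, in this list and among all genes alike. Counts without such genes were not computed. Of 14 measurable matrix ligands of integrins, 6 were higher with each target, against 6.73% and 5.79% of all genes, among them THBS1, CCN1, CCN2, EDIL3 and TGFB1, and none was lower, against 3.05% and 2.02%. CCN2, a secreted matricellular protein, had 1159 in the control, 10015 and 12567 with the COLCA2 guides and 12891 with POU2F3 gRNA, and THBS1 had 2026, 20158, 22791 and 20029.

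Of the 8 hemidesmosome genes and laminin partners, COL17A1 was higher with both targets, and BCAM and SDC4 with both COLCA2 guides. COL17A1, the transmembrane collagen of hemidesmosomes, had 39.2, 530, 890 and 488, a log2 ratio of 4.10 ± 0.53 (SD, n = 2 guides) with COLCA2 and 3.61 with POU2F3 gRNA. Of 10 measurable basement membrane partners, NTN4, FBLN1 and SPARC were higher with each target; NTN4, which binds laminin, had 794, 4819, 5633 and 5353. Among 5 measurable counter-receptors, ICAM1 and CDH1 were higher with both targets. VCAM1 was more than 2-fold lower with POU2F3 gRNA, at 532 against 2564 in the control, and stood near the threshold, at 1265 and 1323, with the COLCA2 guides. Of 11 integrin regulators and tetraspanins only CD82 passed 2-fold, at 331, 1082, 1378 and 851, which is a share near that of all genes. Over all genes 6.73% were higher with POU2F3 gRNA and 5.79% with both COLCA2 guides, and 3.05% and 2.02% were lower.

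Marker lists of other cell types were read beside these results, since integrin and laminin genes are also expressed by such cells. The fibroblast list summed to 1858 in the control and 2252 to 2757 in the others, with LUM at 14.3, 233, 201 and 123 and PDGFRB at 22.9, 187, 120 and 79.7; the other genes of the list did not all follow. COL1A1, its most abundant member, had 1136, 1186, 1008 and 1002, COL6A3 had 94.5, 124, 95.3 and 79.7, and THY1 had 544, 968, 961 and 905. DCN had 35.3, 34.2, 61.2 and 50.4, and COL1A2, under the minimum, had 10.5 to 23.8. The leukocyte list summed to 1617 in the control and 572 to 785 in the others, with 2 of 10 genes measurable. These were LCP2, at 904, 306, 180 and 70.5, and CORO1A, at 683, 458, 409 and 473, which made up most of the sum. CD3D and CD3E were at 0 in all libraries. Endothelial (44.6 to 72.6) and platelet (58.1 to 65.5) sums were low, with KDR, PF4 and GP9 at 0. The part of the fibroblast-list genes in the laminin and integrin results was not tested.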

How the data were processed

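The 4 libraries hold poly(A) RNA of NCI-H1048. TRIzol extraction, DNase treatment and the NEBNext Ultra II RNA kit were used, per the labels' protocols. The submitters' processing notes name hg38, Salmon and DESeq2, without versions or their order. Per the file headers, the authors deposited normalized counts, a linear signal. In every library all values were whole multiples of 1 step (tolerance 1e-06), from which reads were recovered (factors 0.850 to 1.19); counts recovered this way may be rounded estimates.

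Rows of the same symbol were summed, and each of the 37 genes had 1 row. A minimum mean of 20 across libraries left 14940 genes. Ratios use a pseudocount of 1, and a ratio of at least 2-fold is counted without a test. edgeR 4.0.16 (limma 3.58.1, R 4.3.3) tested recovered reads in 3 groups with TMM factors; only the COLCA2 pair gives a spread (1 residual degree of freedom), which the POU2F3 comparison takes over. Exact binomial intervals (95%) describe counting error alone, as PCR copies cannot be told from separate molecules. The scripts were tested on simulated data in which 200 genes were changed by more than 2-fold, alike with every target. That test does not show how well changes near 2-fold, or differences between the targets, are called. Gene positions and lengths come from GENCODE release 29, matched by identifier for all 37 genes. Genes were taken by symbol; 1 that matches the rule is not reported here. All others are named. Of each other list, at most 5 of the genes with the largest change are named. Further fibroblast and leukocyte markers were named after their values were seen. Members and lists were chosen with earlier results of these data known. Alternatives were other pseudocounts, minimums, scalings, thresholds, the highest row only, the edgeR test and each guide left out.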

Additional observations from a re-analysis of the deposited data

Results flagged for a closer look

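LAMB3 differed between the targets: its log2 difference between POU2F3 and COLCA2 gRNA was -1.17 in edgeR's quasi-likelihood test, with an adjusted p of 0.0205 (Benjamini-Hochberg), and both COLCA2 libraries lay above the POU2F3 library. The test takes its spread from the COLCA2 pair alone.

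LAMB4 lay below the control with POU2F3 gRNA and above it with both COLCA2 guides, a difference of -0.44 in log2 ratio between POU2F3 gRNA and the mean of the guides. The difference was not tested by the rule that drew attention to it, it rests on 27 to 34 reads per library, and in edgeR's quasi-likelihood test with Benjamini-Hochberg adjustment its adjusted p was 0.714.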

How the results depend on the processing

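With 1 or 2 libraries a group, all ratios rest on 1 control library, and low genes on few reads. Of 92 recomputed counts and medians, 79 stayed within 1.5 times the count or within the spread between the guides. Of 448 recomputed ratios, 19 moved by more than the spread between the guides. POU2F3 ratios and medians, from 1 library without a spread of its own, were also judged by the spread between the COLCA2 guides. Leaving a guide out moves a ratio by less than that spread by construction. The highest row alone changes nothing, as each gene had 1 row. No ratio past 2-fold changed sign, but other scalings moved a ratio by at most 0.069, too little for that. Ratios near 0 could change sign, as ITGA1 with COLCA2 gRNA did under equal totals (0.034 to -0.035). A 4-fold threshold left 2 genes higher with POU2F3 gRNA and 2 with COLCA2 gRNA; a 1.5-fold threshold gave 13 and 12, and edgeR's quasi-likelihood test 14 and 12. With 1 COLCA2 guide left out, 5 to 8 genes were higher with the other. Lower genes numbered 1 with POU2F3 gRNA without a minimum, and 2 with COLCA2 gRNA by edgeR. Between the targets, 1.5-fold gave 1 gene higher and 2 lower with POU2F3 gRNA, 4-fold gave 0 lower, and leaving out a COLCA2 guide gave 1 to 2 lower. Other thresholds and minimums change what is counted. So do the edgeR test, which needs no 2-fold difference, and leaving a guide out, after which only the other guide must pass. The shares of all genes at the other thresholds and minimums, and with a guide left out, were not computed. Those counts are therefore not read as a result about these genes. Under equal totals LAMB1 went below 2-fold, and under TMM factors ITGA2 and ITGB2 went above it, all with POU2F3 gRNA. No paired analysis was possible because 2 of the 3 groups hold 1 library.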
